A study of Homo sapiens with 2 samples.

Results

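Eph receptors form the largest family of receptor tyrosine kinases, and their ligands, the ephrins, are themselves fixed to the cell membrane, so the receptor on one cell meets its ligand on the cell next to it. Ephrins of the A class are tethered by a lipid anchor and mostly bind EPHA receptors, while ephrins of the B class span the membrane, mostly bind EPHB receptors and can also signal into the cell that carries them. In epithelia this pair of signals is known for cell sorting, repulsion and the shape of junctions, and EPHA2 is known as a gene that responds to RAS and MAP kinase signalling. The genes described here are 7 receptors and 3 ephrins. They were chosen by name from a list and taken through every probe set, a group of short probes read as 1 value, to which the array annotation gives exactly 1 gene symbol. Of the 10 genes, 9 had such a probe set, with 13 probe sets in all, out of 11963 genes and 19071 probe sets so named on the array. No probe set carried the name EPHB2, which was not analysed here.

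RNA came from H6c7, a line of human pancreatic duct epithelium immortalised with papillomavirus genes, and from the same cells after introduction of a K-ras oncogene. Each was measured on 1 Affymetrix U133A array. Both lines share the immortalisation, and the second differs from the first, per the labels, by the oncogene. The labels name no allele, promoter, vector control, pool or clone. With 1 array per line there is no replicate error, no test and no p-value, and a ratio compares these 2 RNA samples. All 6 duct epithelium markers (KRT7, KRT8, KRT18, KRT19, EPCAM and CDH1) were above the floor on both arrays. KRT19 was 2.74-fold lower in the K-ras line (4511 to 1644) and EPCAM 2.08-fold lower (994 to 477), while the other 4 were under 2-fold, and the part of these differences in the results below was not tested. The floor, a signal of 46.9, is the larger of the array medians, and a transcript under it on both arrays is called not measured. Of the markers of other cells, COL1A1, of fibroblasts, was above it on both arrays by probe set 217430_x_at only (130.8 and 94.6). The suffix _x_at marks probes that can also match other sequences. Its probe set 202310_s_at passed the floor on the K-ras array alone, at 59.4, and 202311_s_at and 202312_s_at passed the floor on neither. On the K-ras array alone COL1A2, PECAM1, CELA3A and CD3E passed it, none with a signal over 80.6. The endothelial genes VWF and CDH5, the leukocyte gene PTPRC, PDGFRB, COL3A1, CPA1, INS and GCG were below it on both.

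Of 8 member genes measured, EPHA2 and EPHB4 were at least 2-fold higher in the K-ras line and none was at least 2-fold lower. With a floor at the 30th percentile or none, EPHB3 and EPHB6 also passed 2-fold, which makes 4 higher, and after median centring EFNB2 was lower by just over 2-fold. In the main setting, the shares past 2-fold over all 7693 measured genes were 9.97% on the higher side and 14.4% on the lower. The other settings moved the counts over all genes too. The higher count rose from 767 to 1363 with the floor at the 30th percentile, and to 2414 of 11963 genes with none. Median centring raised the lower count from 1109 to 1265. Both higher members are receptors, and the 3 ephrins were all under 2-fold. The sixth receptor with a probe set, EPHA4, was not measured. In RNA from a whole culture, fewer cells that hold a transcript and less of it per cell cannot be told apart.

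The start regions of EPHA2 and EPHB4 are shown because these are the members past 2-fold. Each is 300 bases, from 250 before to 50 after the annotated start, read 5′ to 3′ on the strand of the gene, from RefSeq on GRCh38.p14. The EPHA2 window is chr1:16156020-16156319 on the minus strand and the EPHB4 window is chr7:100827474-100827773, also on the minus strand. Capitals mark a cAMP response element, TGACGTCA.
EPHA2: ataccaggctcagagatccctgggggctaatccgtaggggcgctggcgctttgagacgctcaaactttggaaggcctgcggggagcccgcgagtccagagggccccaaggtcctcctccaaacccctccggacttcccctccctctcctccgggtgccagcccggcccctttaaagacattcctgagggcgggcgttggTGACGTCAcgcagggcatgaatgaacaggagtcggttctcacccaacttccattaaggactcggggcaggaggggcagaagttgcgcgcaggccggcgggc
EPHB4: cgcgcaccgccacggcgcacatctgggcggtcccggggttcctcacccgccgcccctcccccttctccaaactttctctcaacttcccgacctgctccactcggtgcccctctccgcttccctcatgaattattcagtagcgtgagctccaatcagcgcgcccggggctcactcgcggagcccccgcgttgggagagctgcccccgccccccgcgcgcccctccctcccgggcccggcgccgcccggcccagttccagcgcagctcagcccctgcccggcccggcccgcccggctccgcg
The element in the EPHA2 window begins at position -51 from the start. These letters, searched on both strands, occur in 1.85% of 35116 windows of the same length. Also searched on both strands were the AP-1 site TGACTCA (4.95% of windows), the E-box CACGTG (7.26%) and an ETS site CCGGAAGT (4.14%), none of which overlaps the element found. The EPHB4 window held none of the 4 motifs, nor did any window of the other members, so that 11 of 12 windows over the 10 genes had no match. A match or its absence describes these letters only. The member windows ranged from 43% to 83% G and C, and 10 of 12 were above the median of 58.7% over all windows. The counts over 12 windows take EPHA4 and EPHB2 more than once. The EPHB2 windows start at 22710588 and 22710589, so they hold nearly the same bases. EPHA2 had 20 CpG pairs and EPHB4 had 36, against a median of 14, while EPHB6 had 3.

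Among the A-class receptors the difference was in EPHA2. This receptor is abundant in many carcinomas and can act with or without its ligand. Its signals were 795 (parental) and 2031 (K-ras), which is 2.55-fold higher with the oncogene (log2 ratio 1.35), from its single probe set 203499_at. Both signals lie far above the floor. Of the 7693 measured genes, 314 (4.08%) had a higher ratio. EPHA1, the founding member of the family, had signals of 125.0 and 108.7 in the parental and K-ras lines, a log2 ratio of -0.20. Its other probe set, 215804_at, gave 7.3 and 6.0, below the floor on both arrays. EPHA4, a receptor for ephrins of both classes, gave 5.4 and 4.8 and was not measured either. The 2 measured A-class receptors thus differed in their ratios, with EPHA2 past 2-fold and EPHA1 close to equal signals.

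**Figure D1:**
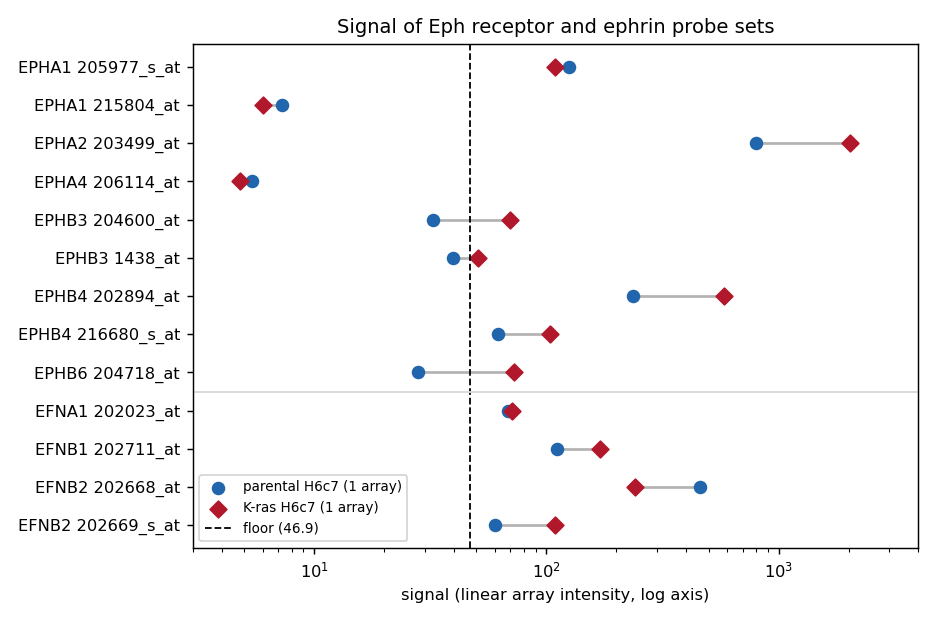
Signal of each of the 13 probe sets (log axis) in parental H6c7 (circles) and K-ras H6c7 (diamonds), 1 array each, with the floor of 46.9 as a dashed line and receptors above the ephrins. EPHA2 moves from 795 to 2031, EPHB3 and EPHB6 cross the floor, and the EFNB2 probe sets move in opposite directions.

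Among the B-class receptors EPHB4, the receptor that pairs with EFNB2 between veins and arteries, had signals of 236 and 582 in the parental and K-ras lines on probe set 202894_at. That is 2.46-fold higher in the K-ras line (log2 ratio 1.30), and 362 measured genes (4.71%) had a higher ratio. Its second probe set, 216680_s_at, was dimmer, at 62.2 and 103.7, and gave 1.67-fold (0.74). Both probe sets of EPHB4 were thus higher in the K-ras line, and 1 of them passed 2-fold. Their log2 ratios lay 0.56 apart. Probe sets of 1 gene had a pooled standard deviation of 0.46 over the 1671 genes where several passed the floor on both arrays, and 40.4% of these genes had probe sets at least that far apart. That spread is technical and holds no variation between cultures. EPHA2 has 1 probe set, so it has no such spread of its own. EPHA2 and EPHB4 are singled out for passing 2-fold, so ratios above 0.46 were fixed in advance and give no support. EPHB4 is known from endothelium, whose 3 markers had summed signals of 38.1 and 105.7 in the parental and K-ras lines. PECAM1 alone was above the floor (80.6 in the K-ras line), and VWF and CDH5 were at most 14.7. The PECAM1 value came from probe set 208982_at, while its probe sets 208981_at and 208983_s_at were at most 7.8 on both arrays.

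EPHB3 and EPHB6 passed the floor on the K-ras array and not on the parental one, so their ratios are lower bounds. EPHB3, known for sorting cells along the intestinal crypt, had signals of 32.4 and 69.9 on probe set 204600_at, at least 1.49-fold higher. Its second probe set, 1438_at, gave 39.6 and 51.0, at least 1.09-fold. EPHB6, a family member whose kinase domain is inactive, had signals of 27.9 and 72.7, at least 1.55-fold higher. None of these bounds reaches 2-fold, and all 3 K-ras signals lie near the floor. These 2 genes count as measured only through the K-ras array, where they are higher, so their direction follows from how they entered. Of the receptors above the floor on both arrays, EPHA2 and EPHB4 were higher and EPHA1 was slightly lower.

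No ephrin probe set reached 2-fold in the scaling used here. EFNA1, the ligand best known for EPHA2, had signals of 68.4 (parental) and 71.0 (K-ras), a log2 ratio of 0.05 that turned to -0.06 under a loess curve and was below 0 after median centring too. The signals of this ligand were thus close on the 2 arrays, while those of its receptor were 2.55-fold apart. EFNB1, a ligand of EPHB receptors, had signals of 111.3 and 170.1, a 1.53-fold higher value (0.61), with 1772 measured genes (23%) at a higher ratio.

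EFNB2, the ligand of EPHB4, had no single direction. Probe set 202668_at, the brighter one, went from a parental signal of 457 to 241 with K-ras, 1.89-fold lower (log2 ratio -0.92). Probe set 202669_s_at had 59.8 and 108.9, 1.82-fold higher (0.86). Each passed 2-fold under 1 other scaling, the former at -1.02 after median centring and the latter at 1.06 on the maintenance probe sets. The log2 ratios lay 1.78 apart, and 36 of the 1671 genes with several probe sets above the floor (2.15%) had a range at least as large. Opposite signs alone were less rare, in 440 of these genes (26.3%). Which transcripts each probe set reads was not tested. The suffix _s_at marks probes that can match more than 1 transcript.

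**Figure D2:**
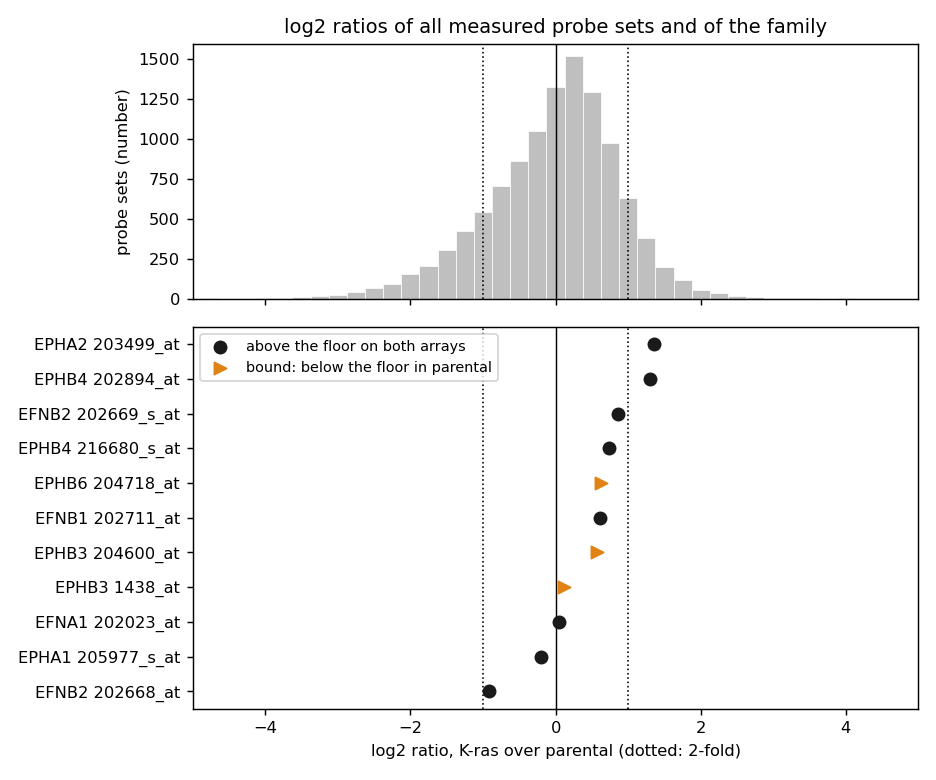
Top, number of probe sets by log2 ratio (K-ras over parental) over all 11090 measured probe sets with 1 gene symbol. Bottom, the 11 measured probe sets of the family, circles above the floor on both arrays and triangles lower bounds, with dotted lines at 2-fold. EPHA2 and EPHB4 202894_at lie past the upper line and EFNB2 appears on both sides of 0.

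Taken by probe set, 11 of the 13 were measured, 8 of them above the floor on both arrays and 3 as bounds. Of the 8 above the floor on both arrays, 6 had log2 ratios above 0, against 54.3% of all such probe sets. These 8 come from 6 genes and are not independent, since both EPHB4 probe sets are above 0 and EFNB2 lies on both sides. Of the 11, 2 were at least 2-fold higher against 10.1%, and none was at least 2-fold lower against 14.7%. The 6 member genes that passed the floor on both arrays had a median log2 ratio of 0.33, against 0.10 over all such genes. Scaling on the maintenance probe sets raised the median over all genes that passed the floor on both arrays from 0.10 to 0.26, and with it EPHA2 to 1.55 and EPHB4 to 1.497. Under 4 other scalings (quantile normalization, median centring, a loess curve and the maintenance probe sets) EPHA2 lay between 1.25 and 1.55 and EPHB4 202894_at between 1.203 and 1.497. With the floor added to both signals as a pseudocount, EPHB4 was at 1.15.

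**Figure D3:**
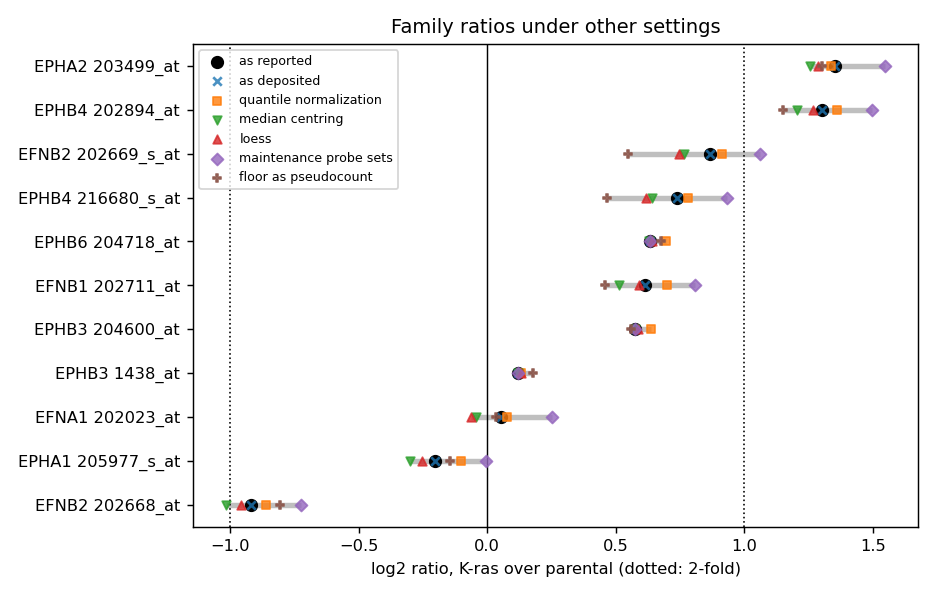
Log2 ratio (K-ras over parental) of the 11 measured probe sets as reported (black) and under 6 other settings (the values as deposited, 4 other scalings and the floor as a pseudocount), with the range as a grey bar and dotted lines at 2-fold. EPHA2 and EPHB4 202894_at stay past 2-fold in each, and EFNA1 lies on both sides of 0.

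The other genes of the family were mostly not measured. Of 12 further receptors and ephrins, 9 had a probe set and 4 were measured, all ephrins and all under 2-fold. The ligand EFNB3 had signals of 59.0 and 99.6, a log2 ratio of 0.76, on a single probe set above the floor (210883_x_at). The suffix _x_at marks probes that can also match other sequences. The other EFNB3 probe set was below the floor on both arrays, at 6.6 and 8.0. EFNA5 had 78.8 and 90.5 (0.20), and EFNA4 had 59.5 and 50.8 (-0.23). EFNA3 had 33.9, under the floor, and 57.4 in the K-ras line, at least 1.22-fold higher. EFNA4, EFNA3 and EFNA1 are next to each other on chromosome 1 in the RefSeq order, and none of the 3 reached 2-fold. The receptors EPHA3, EPHA5, EPHA7 and EPHB1 and the ligand EFNA2 were below the floor on both arrays. EPHA6, EPHA8 and EPHA10 were not analysed here.

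Genes that act with the receptors and ephrins differed in both directions. Of 67 genes in 6 lists by role, 54 were measured, and 7 of them passed 2-fold on each side, which is 13% each way against 9.97% and 14.4% of all genes. That split was 11 to 5 when scaled on maintenance probe sets and 5 to 9 after median centring. The median log2 ratio over the 54 was 0.10, the same as over all measured genes.

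Adaptors, phosphatases and exchange factors carry the signal of an activated receptor. Of 16 measured, 3 were higher and 1 lower (median log2 ratio -0.02), by the probe set that stood for each gene. NCK1 was 1.99-fold lower on that probe set and 2.48-fold lower on its other one. ITSN1 had a log2 ratio of -0.28, but its probe set 209297_at was at least 4.52-fold lower. SHC1 was 1.36-fold higher, and 2-fold higher on its other probe set. The adaptor GRB7 had signals of 103.4 and 365 in the parental and K-ras lines, 3.53-fold higher. The related adaptor GRB10 had 145.2 and 366 (2.52-fold), and 2 further probe sets gave log2 ratios of 0.81 and 1.16. The exchange factor VAV2 was 2.07-fold higher, from 53.2, near the floor, to 109.9. Its other probe set was below the floor on both arrays, at 2.1 and 3.7. The tyrosine phosphatase PTPN11 (SHP2) was 2.91-fold lower, from 1003 to 345. Its other measured probe sets were lower too, with log2 ratios of -1.12 and -0.79 and a bound of -0.46. INPPL1 (SHIP2), a lipid phosphatase that binds EPHA2, had signals of 105.6 and 108.3 (0.04).

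The cytoplasmic kinases of the list went both ways, with 2 of 7 higher and 2 lower (median 0.20). SRC had signals of 58.8 and 196.0, 3.33-fold higher, on 1 of its 3 probe sets, while the others were below the floor on both arrays. FYN was 2.84-fold higher, from 169 to 479, and 3.88-fold on another probe set. YES1, of the same kinase family, was lower in the K-ras line, from 381 to 68.4 (5.58-fold), with 5.81-fold on a second probe set. PTK2, the focal adhesion kinase, was 2.03-fold lower, from 156.1 to 77.0, but the log2 ratio of its other probe set was -0.08.

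Genes of reverse signalling, by which a B-class ephrin acts on its own cell, had none of 7 higher and 2 lower (median 0.10). SDCBP (syntenin), whose PDZ domains bind the tail of B-class ephrins, had signals of 703 and 217, 3.24-fold lower. The phosphatase PTPN13 was under the floor on the K-ras array, at least 2.15-fold lower from 100.9.

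In the list of enzymes that cut receptors and ephrins, 1 of 7 was higher and 1 lower (median 0.36). ADAM10, the sheddase that cuts ephrins once they are bound, had signals of 723 (parental) and 81.3 (K-ras), 8.90-fold lower. Its other probe sets did not pass the floor with K-ras and were at least 1.81-fold and at least 2.01-fold lower, so all 3 were lower. PSENEN, a subunit of gamma-secretase, was 2.11-fold higher, from 204 to 431. MMP14, which is known to cut EPHA2, was under 2-fold on its brightest probe set, with signals of 477 and 821 (0.78). Of its other probe sets, 202827_s_at and 202828_s_at gave 1.68-fold and 1.90-fold higher and 217279_x_at, below the floor in the parental line at 34.7, at least 2.88-fold higher.

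Of the 10 cytoskeletal effectors measured, none was at least 2-fold higher and 1 lower (median -0.08), by the probe set that stood for each gene. PXN was 1.95-fold higher on that probe set and 3.12-fold higher on its other one. ROCK2 had a log2 ratio of 0.03, but its other probe set was at least 2.19-fold lower. ROCK1, a kinase that contracts the actin cortex, went under the floor on the K-ras array from a signal of 414, at least 8.82-fold lower, while its other probe set gave 1.76-fold lower. Among the surface partners, 1 of 7 was higher and none lower (median 0.44). EGFR, a receptor that is known to associate with EPHA2, had signals of 321 and 1205, 3.75-fold higher, and 4 further probe sets were past 2-fold, 3 of them as bounds. CDH1 (E-cadherin), on which the placing of EPHA2 at cell contacts depends, had signals of 1515 and 1487 (-0.03). Its dimmer probe set, 201130_s_at, had 151.5 and 106.6 (-0.51).

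**Figure D4:**
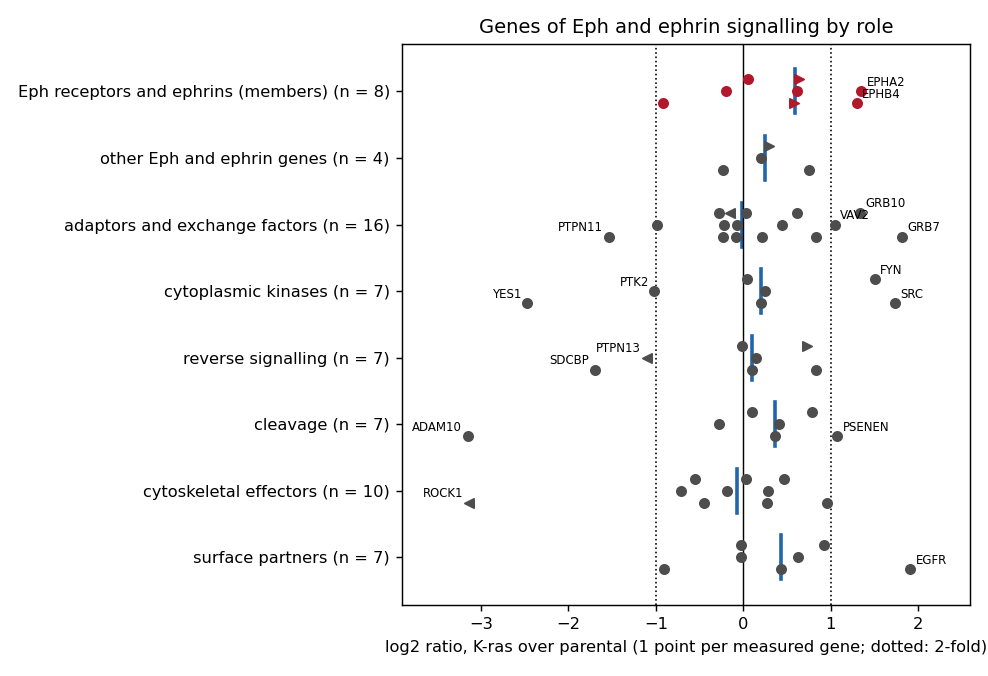
Log2 ratio (K-ras over parental), 1 point per measured gene, for the family and for 7 lists of related genes, with genes past 2-fold named, triangles for bounds, a blue bar at each median and dotted lines at 2-fold. ADAM10 and ROCK1 lie furthest to the lower side and EGFR, GRB7 and SRC to the higher side.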

How the data were processed

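The authors deposited linear intensities, 1 for each of 22283 probe sets on each array. How they were made is not given in the sources used. The means after leaving out the lowest and highest 2% were 150.06 on both arrays, so the table was taken as scaled, and the K-ras column was adjusted to the same trimmed mean. Annotation gave 19071 probe sets 1 symbol and 1043 several, and 2169 are unnamed here. Of the 19071, 19059 were matched to RefSeq GRCh38.p14 by gene number. The floor was the 50th percentile over probe sets other than controls, on the array where it was higher. A signal under it on 1 array was set to it, which gives a bound. The probe set with the highest mean log2 signal stood for a gene, and calls were made at 2-fold. Every member is named, with every gene of the further family list; of the other lists, up to 4 genes past 2-fold in each direction and ADAM10, INPPL1, SDCBP, EGFR and CDH1. MMP14, PXN, ROCK2, NCK1, ITSN1 and SHC1 were named after their values were seen. Members and lists were chosen with earlier results of these data known. A planned comparison of protein sequences was not made. The procedure was tested on simulated data, with planted changes larger than any member ratio and only in genes well above the floor. That test does not cover changes of the members' size or genes near the floor. Precision is limited by having 1 array per line. Python 3.11.15, numpy 2.4.6, pandas 2.3.3 and statsmodels 0.14.6 were used.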

Additional observations from a re-analysis of the deposited data

How the results depend on the processing

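All 11 measured member probe sets moved by less than 0.46, the spread between probe sets of a gene, under each of 6 other settings. These were loess, quantile normalization, maintenance probe sets, centring on the median, the floor as a pseudocount, and no rescaling. Much of this was fixed in advance and gives no support. The main scaling changed the deposited K-ras values by a factor of 0.999981 only. Median centring and the maintenance probe sets rescaled the K-ras column by 1 factor, which shifts every ratio above the floor on both arrays alike. The main floor is the K-ras median and is rescaled with that column, so the 3 bounds could hardly move. EPHA2 and EPHB4 were the members at least 2-fold higher under these 6 settings, a floor at the 70th percentile, the median over probe sets and without _x_at and _s_at probe sets. EPHB3 and EPHB6 joined them, for 4 higher, with a floor at the 30th percentile and with no floor, and EFNB1 and EPHB6 did at 1.5-fold, also 4. At 3-fold 0 were higher. EFNB2 was the 1 member lower after median centring, and again 1 at 1.5-fold. In the pathway lists 11 genes were higher when scaled on maintenance probe sets, 15 at 1.5-fold and 3 at 3-fold, where 4 were lower. Over all genes the higher and lower counts were 767 and 1109 of 7693 measured. Of the same 7693, 1845 and 1860 passed 1.5-fold, and 185 and 480 passed 3-fold. With no floor the counts were 2414 and 1793 of 11963. Scaled on maintenance probe sets they were 1093 and 844, and after median centring 627 and 1265. They were 451 and 632 with the floor at the 70th percentile, and 460 and 721 without _x_at and _s_at. The number of genes measured also changes with the floor and the probe sets kept. The higher count was 469 with the floor as a pseudocount and 1363 with the floor at the 30th percentile. Signal over background limits EPHB3, EPHB6 and EPHA4. No paired analysis was possible because each line has 1 array.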
